A study of Arabidopsis thaliana with 6 samples.

Results

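Plant immune receptors of the NB-ARC and Toll-interleukin receptor (TIR) families were examined in seedlings of Arabidopsis thaliana that carry a mutation in S-adenosylmethionine synthetase 3 (SAMS3). The genes were chosen by the domains that the deposited gene descriptions name, InterPro entry IPR002182 for NB-ARC or IPR000157 for TIR. This rule found 23 genes among the 1336 in the authors' lists of changed genes, of which 20 were higher and 3 lower in the mutant. The lists hold only genes past the authors' limits, a change of 2-fold or more and a p-value under 0.0001, so receptor genes that missed either limit are outside this count. The labels and headers do not say if the p-values are adjusted.

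The RNA libraries numbered 2 for the sams3 mutant and 2 for the wild-type control, a transgenic line named L119. Both genotypes were whole seedlings 15 days old, grown at 22 °C with 23 h of light a day, and the labels of the mutant also give L119 as its ecotype. Neither the transgene of L119 nor the kind of sams3 mutation is stated in the labels, and nothing there says that the 2 libraries of a genotype came from separate cultures. Each p-value thus rests on these few libraries, whose spread is possibly technical, and how that spread was estimated is not stated. The bisulfite libraries, 1 per genotype, were not analysed here.

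All values are log2 fold changes, sams3 over L119, and p-values from the authors' comparison. The deposited lists used here hold no values per library and no standard errors, and the sequencing depth is unknown. The tissue could not be checked against its markers, because a list of changed genes gives no levels. In whole seedlings fewer cells of a type and less RNA per cell cannot be told apart.

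Intracellular immune receptors of plants, called NLRs, combine a central NB-ARC domain, which binds nucleotides and works as a switch, with leucine-rich repeats (LRR) that take part in recognition. In one large class a TIR domain stands at the N-terminus. It is an enzyme that cleaves NAD+ and makes small signals that are sensed by complexes of EDS1 with PAD4 or SAG101. Helper NLRs with an RPW8-like domain, such as ADR1, act downstream of these complexes. Shorter proteins with a TIR domain alone, or with TIR and NB-ARC but no repeats, are also encoded in the genome. Many receptor genes lie in clusters of similar copies, and some are known to be restrained by DNA methylation, by histone marks or by small RNAs. S-adenosylmethionine, the product of the SAMS enzymes, is the methyl donor for DNA and histone methylation.

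Rises prevailed among the listed receptor genes. Higher genes made up 87.0% of the 23 (exact 95% interval 66.4 to 97.2%, counting error only), beside 66.9% of all 1336 listed genes. This difference was not tested. Groups defined by LRRs or by a protein kinase domain, which is not limited to receptors, had similar shares. Of 24 listed genes with an LRR entry but neither NB-ARC nor TIR, 21 were higher (87.5%). Of 72 with a protein kinase catalytic domain, 61 were higher (84.7%). The 2 groups have 12 genes in common, of which 11 were higher. A share of higher genes of this size was thus also found in those groups.

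The rises were modest. The 20 higher receptor genes had log2 values from 1.003 to 2.21 in the authors' deposited table, or rises of 2.00-fold to 4.62-fold, with a median log2 of 1.32. All 894 higher genes reached up to 9.74 in the authors' deposited table and had a median of 1.62. A log2 of at least 2 was given to 3 of the 20 receptor genes (15.0%) and to 288 of the 894 (32.2%). None of the receptor genes was among the 61 higher genes with a log2 of at least 5. By size of the rise, the receptor gene placed highest was PP2-A5, at rank 249 of 894.

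**Figure D1:**
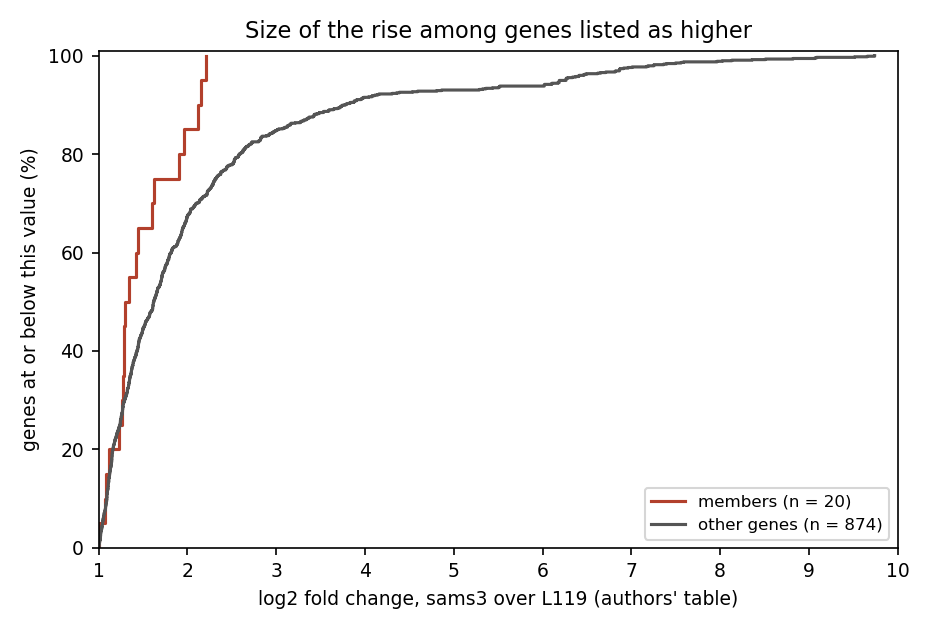
Cumulative share of genes (vertical axis, %) by log2 fold change of sams3 over L119 (horizontal axis) for the 20 receptor genes and the 874 other genes listed as higher. The curve of the receptor genes ends at 2.21, whereas that of the other genes runs on to 9.74.

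The p-values behind these modest folds were small. Their median in the authors' deposited table was 1.74e-56 for the 20 higher receptor genes and 1.26e-21 for all higher genes. Restricting the other higher genes to folds no larger than those of the receptor genes left 626 genes with a median p of 4.62e-22 in the authors' deposited table. A p below 1.31e-06, the Bonferroni limit over 38094 reference loci, was given to all 20 higher receptor genes, beside 790 of all 894 higher genes. Of the 3 lower receptor genes 1 was below it, beside 362 of all 442 lower genes. Levels are not in the lists, so these p-values could not be set beside expression.

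**Figure D2:**
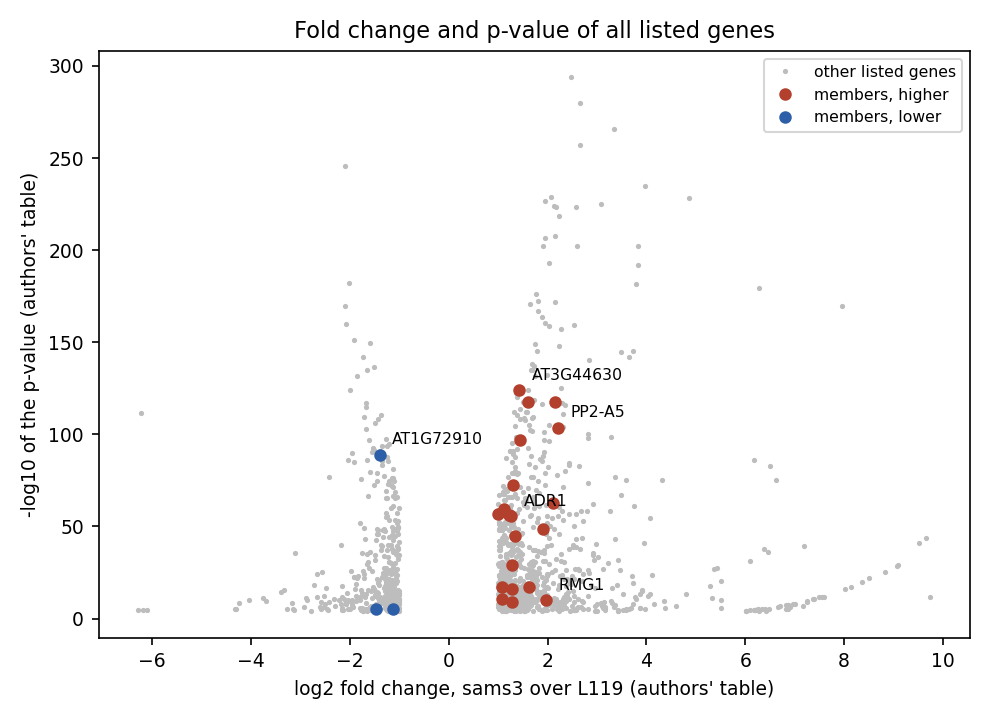
Log2 fold change (horizontal axis) and −log10 of the p-value (vertical axis) in the authors' table for the listed genes, with the receptor genes in colour. Genes with a p-value listed as 0, 7 in number and none of them a receptor gene, are not drawn, and of the 3 lower receptor genes AT1G72910 stands far above the other two.

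By the InterPro entries named in the descriptions, 9 of the genes have TIR, NB-ARC and LRR, the full build of a TIR-type NLR (TNL). A further 6 have TIR and NB-ARC without the LRR entry. LRR was counted by a single entry, so repeats under another entry or given in words alone count as missing. A TIR domain without NB-ARC, here called TIR alone, was named for 4 genes, RPW8 with NB-ARC for 2, NB-ARC with LRR for 1 and NB-ARC alone for 1. A missing domain in these descriptions is not proof of a shorter protein: AT1G63750 is described as a TNL although no TIR domain is listed for it. The domains looked for were NB-ARC, TIR, LRR and RPW8, so coiled-coil type NLRs were not counted as a class. On the chromosomes named in their identifiers, 8 lie on chromosome 1, 3 on chromosome 2, 3 on chromosome 3, 2 on chromosome 4 and 7 on chromosome 5.

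**Figure D3:**
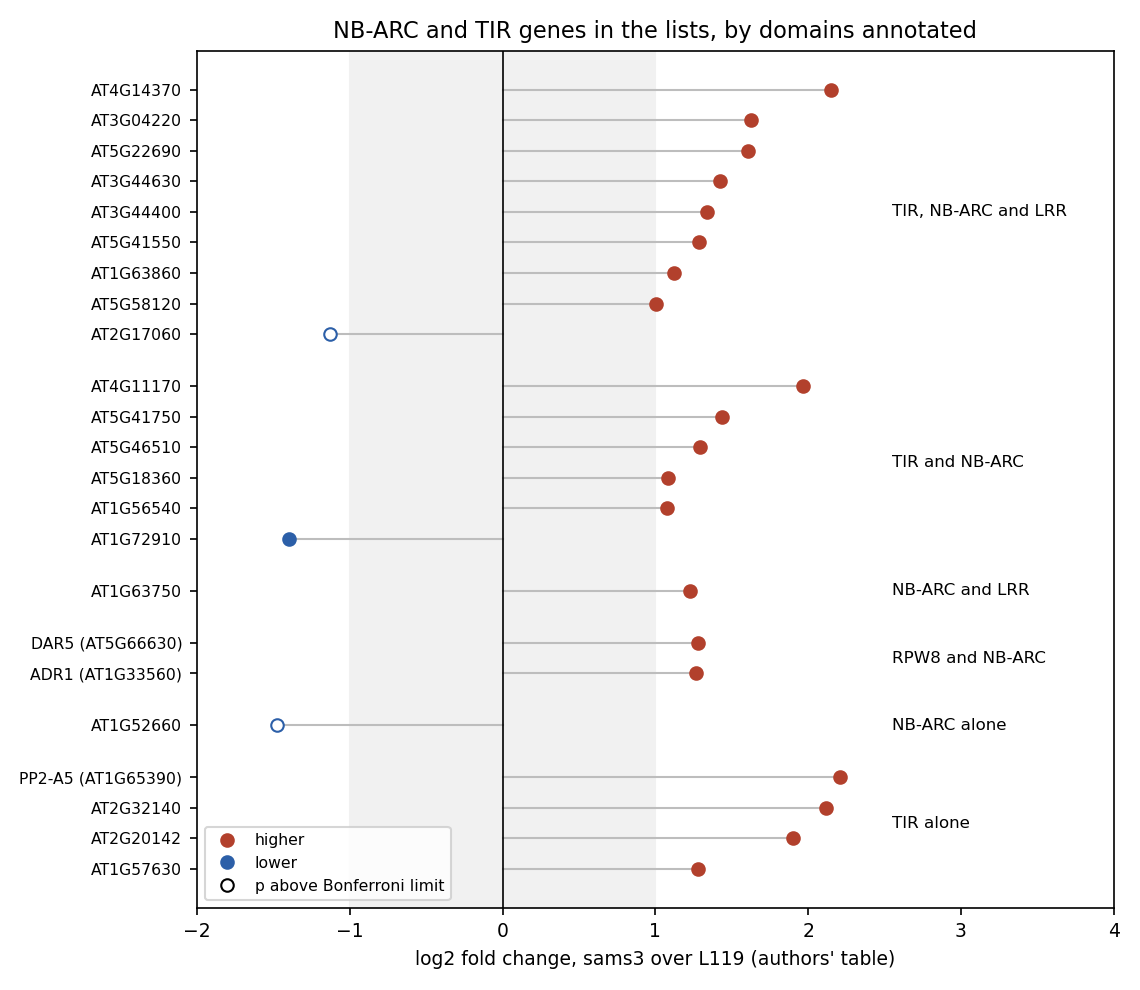
Log2 fold change of sams3 over L119 (horizontal axis) for each of the 23 receptor genes, grouped by the domains named in the descriptions. Filled circles have a p below 1.31e-06 and the grey band marks log2 values from −1 to 1, which the authors' limits exclude; the 3 lower genes fall into different groups.

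Of the 9 listed genes with the full TNL build 8 were higher, beside 66.9% of all listed genes, and the median log2 of these 8 was 1.38. AT4G14370 had the largest rise of this group, with a log2 of 2.15 and p = 4.09e-118 in the authors' deposited table. Its description gives flower and pollen as places of expression. AT3G04220 followed at 1.63 (p = 7.66e-18) and AT5G22690 at 1.60 (p = 4.61e-118) in the authors' deposited table. These folds were nearly equal, while the p-values lay far apart. AT5G22690 is described as most similar to RPS6, a receptor for a bacterial effector, and RPS6 itself was not listed.

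Next in size among the TNL genes came AT3G44630 and AT3G44400, which belong to the stretch of the genome that holds RPP1, a receptor gene for downy mildew. The authors' deposited table gives a log2 of 1.42 (p = 1.11e-124) for AT3G44630, the smallest p of the 23 genes, and 1.34 (p = 1.43e-45) for AT3G44400. They lie 37 loci apart in reference gene order. From AT3G44400 to AT3G44670 there are 44 loci, and these genes were the 2 listed, RPP1 not being among them. Over the whole reference 1335 of 38094 loci were listed, and this stretch begins with a listed gene. AT3G44630 is also the closest match that the description of AT3G44400 names. Reads from such similar copies may be shared between them, so each single value is uncertain.

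The smaller rises in the group were those of AT5G41550, AT1G63860 and AT5G58120. AT5G41550 had a log2 of 1.29 (p = 5.85e-17) in the authors' deposited table, and its closest match is AT5G41750, another listed gene 27 loci away. AT1G63860 was at 1.12 (p = 3.90e-60) in the authors' deposited table. AT5G58120 stood just inside the authors' limit on fold, at 1.003 (p = 1.24e-57) in the authors' deposited table. Its description and that of AT1G63750 name each other as the closest match. AT1G63750, listed with NB-ARC and LRR, was at 1.22 (p = 1.13e-56) in the authors' deposited table and lies 16 loci from AT1G63860. Both partners of each of these pairs were higher in the mutant.

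Genes with TIR and NB-ARC but without the LRR entry included RMG1 (AT4G11170), whose name stands for Resistance Methylated Gene 1. RMG1 is known from other work as a TNL gene with a methylated promoter, weakly expressed in unchallenged leaves and induced by bacterial flagellin. Its log2 in the authors' deposited table was 1.96 (p = 1.29e-10), a rise of 3.90-fold. By p it ranked 651st of the 894 higher genes, against 306th by fold. The description gives stem, root and stamen as places of expression.

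AT5G41750 was at 1.44 (p = 2.22e-97) in the authors' deposited table, and the similar gene AT5G41740 named in its description was not listed. VICTL (AT5G46510) was at 1.29 (p = 2.28e-73) in the authors' deposited table. Its closest match and neighbour is VICTR, a TNL gene known for arrest of root growth by a small molecule. Of the 6 loci from RPS6 to VICTR, VICTL was the listed one, beside 1335 of all 38094 reference loci. AT5G18360 (1.08, p = 2.02e-11) and AT1G56540 (1.07, p = 1.08e-17) were near the limit on fold in the authors' deposited table. AT1G56540 lies beside WRR4, a receptor gene for white rust, which was not listed.

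The 4 listed TIR-alone genes were higher, beside 66.9% of all listed genes, and 3 of them were among the 5 largest rises of the 23 genes. Their median log2 was 2.01, against 1.29 for the 16 higher genes with an NB-ARC domain. This split was seen in the data first and has no test. PP2-A5 (AT1G65390), a phloem lectin fused to a TIR domain and known to act against spider mites, had the largest rise, with a log2 of 2.21 (p = 2.69e-104) in the authors' deposited table. AT2G32140, whose closest match is PP2-A5, was at 2.12 (p = 3.25e-63) in the authors' deposited table. AT2G20142 was at 1.90 (p = 2.29e-49) in the authors' deposited table, and RPP1 is the match named for it.

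The fourth TIR-alone gene, AT1G57630, was at 1.28 with p = 7.53e-10 in the authors' deposited table, the largest p of the 20 higher genes. VICTL had nearly the same fold with a far smaller p. AT1G19960, which has no domain named in its description but is matched there to AT2G32140, went the other way, with a log2 of -1.12 (p = 2.26e-08) in the authors' deposited table. It is outside the rule. Further lectin genes of the phloem protein 2 family that carry no TIR domain were also higher, from PP2-B11 at 1.03 to PP2-B13 at 1.46 in the authors' deposited table, with PP2-B6 between them.

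Both listed genes with an RPW8 domain rose by nearly the same amount. ADR1 (AT1G33560), a helper NLR that passes on signals of several receptors and promotes salicylic acid defence, was at 1.26 (p = 2.36e-56) in the authors' deposited table. ADR1-L1 and ADR1-L2, its close relatives, were not listed. DAR5 (AT5G66630), which joins RPW8 and NB-ARC to a LIM zinc finger of the DA1 family, was at 1.28 (p = 5.80e-30) in the authors' deposited table. Beside DAR5 lie DAR6 and DAR3, of the same family but without the NB-ARC domain, and both rose, to 1.36 (p = 1.03e-30) and 2.09 (p = 2.22e-55) in the authors' deposited table. DAR5 and DAR6 name each other as closest matches, so their reads may be shared too.

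The 3 lower genes had falls of similar size but very different p-values. AT1G72910, with TIR and NB-ARC, was at -1.40 with p = 1.06e-89 in the authors' deposited table, which ranked 30th by p among the 442 lower genes. It lies in a row of TIR genes. Of the 9 loci from AT1G72900 to AT1G72950, which include the gene named TIR, AT1G72910 was the listed one, beside 1335 of all 38094 reference loci. AT1G52660, with NB-ARC alone, was at -1.48 (p = 9.03e-06) in the authors' deposited table. AT2G17060, a TNL gene, was at -1.13 (p = 4.85e-06) in the authors' deposited table. The median of the 3 was -1.40, beside -1.27 for all 442 lower genes.

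For both AT1G52660 and AT2G17060 the description names root as the only place of expression. AT5G41550 is the third gene of the 23 with that annotation, and it was higher. Among the other listed genes with root as the only place named, 22 were higher and 4 lower (84.6% higher), beside 66.9% of all listed genes. These splits were not tested. Without the 3 receptor genes annotated to root alone, a choice made after the data were seen, the set has 19 higher genes and 1 lower.

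Closest matches named in the descriptions were compared with the lists. For 6 of the 23 genes (26.1%) the closest match was itself listed, and it went the same way in 6 of 6 cases. Over the other listed genes with a named match the share was 23.4% (276 of 1179), with 255 in the same direction. For the other 17 receptor genes the match was not listed, which does not show that it did not change. Of the 6 cases 3 were reciprocal, as were 198 of the 276, and AT1G63750 and AT5G58120 count once each way. Similar copies may also share reads, so the 6 cases are not independent.

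Neighbouring loci were then examined in the gene order of the reference. Within 10 loci on each side, no receptor gene had another of the 23 as a neighbour. Listed genes made up 3.70% of the 460 neighbouring loci (17 genes), beside 5.43% around the other listed genes. Over the whole reference 1335 of 38094 loci were listed. Of these 17 neighbours 12 had the direction of the receptor gene (70.6%), beside 67.5% around the other listed genes. Neither the share listed nor the share in the same direction was tested.

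**Figure D4:**
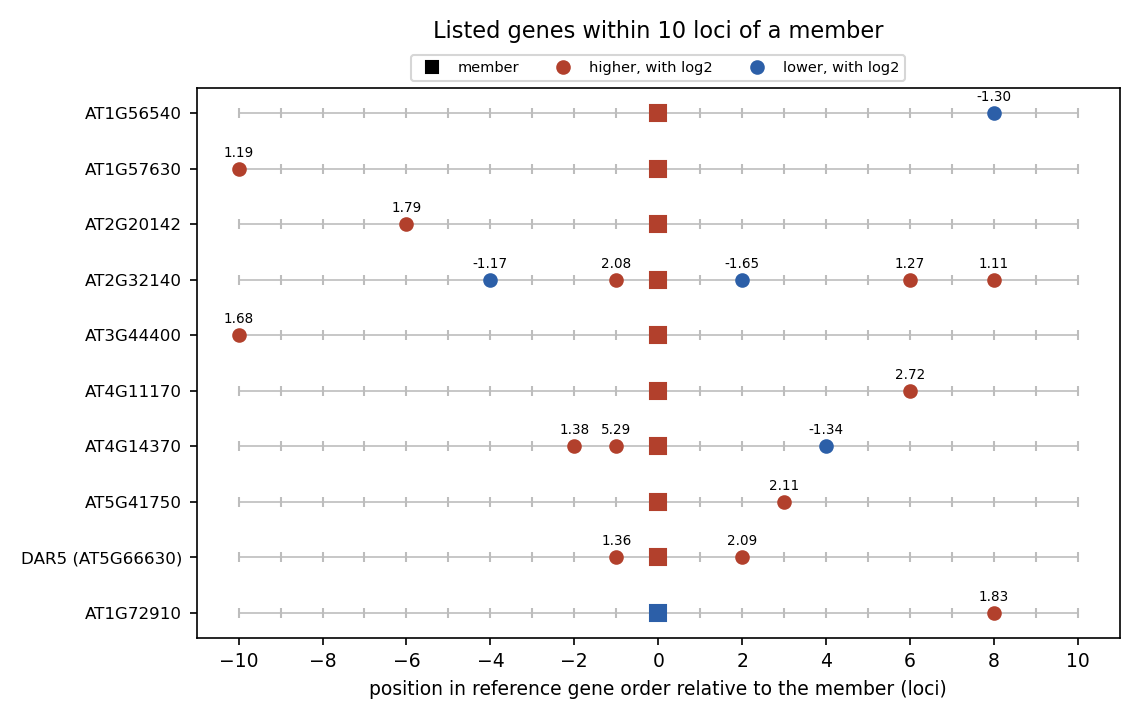
Listed genes (circles, with log2 fold change above) within 10 loci of a receptor gene (square at 0) in reference gene order, for the 10 receptor genes that have one. Most rows show single neighbours, whereas AT2G32140 has 5 and AT4G14370 has 3, in both directions.

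AT2G32140 had the most listed neighbours, 5 in number. The adjacent locus AT2G32130, a gene with a DUF641 domain, was at 2.08 (p = 1.16e-10) in the authors' deposited table. The description of AT2G32140 also names a DUF641 domain, and the labels and headers do not say how reads of adjacent genes were told apart. AT2G32160, a putative S-adenosylmethionine-dependent methyltransferase gene, was at -1.65 (p = 1.29e-35) in the authors' deposited table. OFP16 was at -1.17, and AT2G32190 and AT2G32210 were at 1.27 and 1.11, in the authors' deposited table.

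Around AT4G14370 both directions were seen as well. The adjacent locus AT4G14368, an RCC1 family gene, was higher by far more than any of the 23, at 5.29 (p = 3.07e-18) in the authors' deposited table. XBAT34, a ubiquitin ligase gene 2 loci away, was at 1.38 (p = 3.44e-79) in the authors' deposited table. ACD6, a membrane protein gene that promotes salicylic acid defence and cell death, lies 4 loci away and was lower, at -1.34 (p = 2.21e-94) in the authors' deposited table. Beside RMG1, at a distance of 6 loci, the dirigent family gene AT4G11210 was at 2.72 (p = 5.78e-10) in the authors' deposited table.

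The RPP4 to RPP5 cluster, which holds SNC1 and is known for control by small RNAs and chromatin, gave no listed receptor gene. Of its 19 loci 2 were listed and both were lower, beside 1335 listed of all 38094 reference loci. AT4G16880, an LRR family gene similar to TNLs, was at -1.11 (p = 2.59e-06) in the authors' deposited table. AT4G16892, a noncoding RNA in the reference, was at -1.43 (p = 2.65e-06) in the authors' deposited table. They lie 2 loci before and 1 locus after SNC1, and both p-values were above the Bonferroni limit of 1.31e-06.

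Known genes of the receptor pathway were then looked up in the lists. Of 68 genes in 5 hand-written groups, 3 were higher and 2 lower (all protein-coding reference loci gave 3.11% listed as higher, 1.57% as lower and 4.68% in either direction). None of the 26 NLR genes put in the first group, RPS4, RPS2, RPM1, ZAR1 and SNC1 among them, was listed. This 0 depends on the choice of genes, since RMG1 is not in the group and ADR1 is in another. Of 7 helper NLR and RPW8 genes, ADR1 was the listed one. The 10 genes grouped as EDS1 node and NLR chaperones, among them EDS1, PAD4, SAG101, RAR1 and SGT1B but also NDR1 and RIN4, were not listed. Nor were any of the 12 genes grouped as restraining NLRs, among them BON1, SRFR1, CPR1, DDM1 and MET1. With 4.68% of all protein-coding loci listed, groups this small could have no listed gene in any case. Their absence was thus not read as a result.

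NLRs of the TIR class are known to raise salicylic acid signalling. Genes of salicylic acid synthesis, signalling and systemic defence were listed in both directions. Of 13 such genes 2 were higher, 2 lower and 9 not listed. All protein-coding loci gave 3.11% higher, 1.57% lower and 4.68% in either direction. The listed share of this small hand-written group was thus larger than that over all loci, which was not tested. EDS5, the transporter of a salicylic acid precursor, was at 1.72 (p = 7.90e-61) and the marker PR1 at 1.33 (p = 7.06e-43) in the authors' deposited table. NIMIN1, which binds the receptor NPR1, was at -1.73 in the authors' deposited table, with a p of 9.79e-05 that is above the Bonferroni limit. The transcription factor gene WRKY70 was at -1.04 (p = 1.62e-52) in the authors' deposited table. ICS1, the enzyme that makes the precursor, was not listed.

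**Figure D5:**
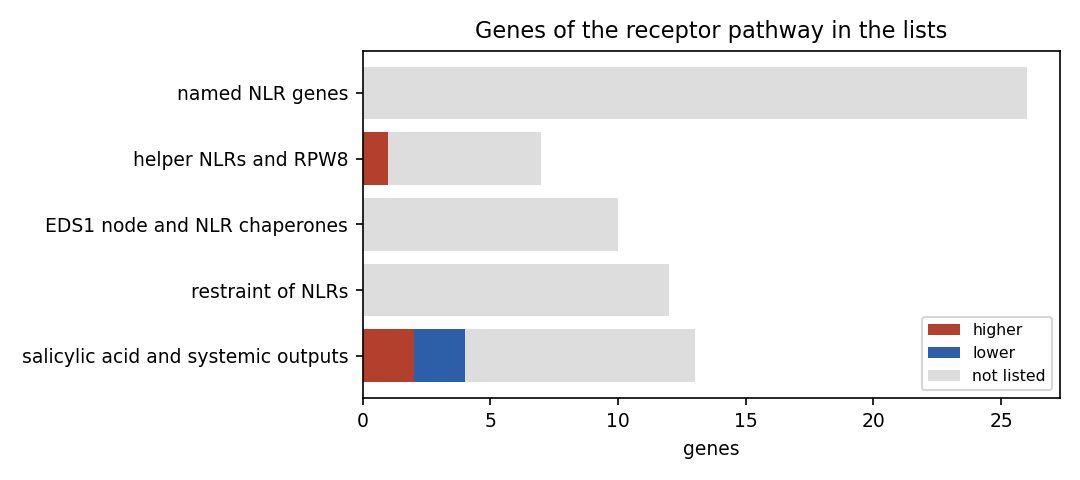
Number of genes (horizontal axis) listed as higher, listed as lower or not listed for 5 hand-written groups of the receptor pathway. Of the 68 genes 63 were not listed.

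Process terms in the descriptions place most of the set in defence. The term for innate immune response was given to 16 of the 23 genes, 14 higher and 2 lower. It was also given to 1 other listed gene, the peptide receptor PEPR1 (1.24 in the authors' deposited table). Higher genes made up 66.9% of all 1336 listed genes. Defence response was given to 21 of the 23, 18 higher and 3 lower, and to 29 other listed genes, 26 higher and 3 lower. The median log2 of those with this term was 1.29 for the receptor genes and 1.82 for the other genes. Such terms may rest on the same domains, so they are not separate evidence.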

How the data were processed

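Per the file headers, the authors kept genes with a change of 2-fold or more and a p-value under 0.0001. The deposited lists give the log2 fold change, the p-value as computed by the authors, and a description for 894 higher and 442 lower genes. Bowtie2, Bismark and edgeR are tools named in the submitters' processing notes, with TAIR10 as the build, and no version or setting is given there. A table headed as transposable elements that rose was byte for byte the list of higher genes and was not used, nor was the list of lower elements, which has no descriptions.

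The RefSeq table of TAIR10.1 gave symbols, types and the order of genes, and in it 1335 of the 1336 genes and all 23 receptor genes were found. No coordinates are printed, because the build it names is not the one the authors name. Neighbours were loci at most 10 apart in that order. No protein, promoter or genome sequence was used.

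The receptor genes, the 5 pathway groups and the comparisons were chosen with earlier results of these data known. All 23 genes are named, with listed pathway genes, listed neighbours and relatives outside the rule chosen after their values were seen. No test was fitted, since the lists hold no values per library. The share of receptor genes that were higher has an exact (Clopper-Pearson) 95% interval, and the other shares are given without one. Python 3.11.15, pandas 2.3.3, numpy 2.4.6, scipy 1.17.1 and matplotlib 3.10.9 were used.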

Additional observations from a re-analysis of the deposited data

How the results depend on the processing

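Values were taken as kept where a count stayed within 1.5 times, the share higher within its 95% interval, and the median log2 within 0.384, the SD over the 20 higher genes. Of 26 alternatives, 15 kept the value and 11 moved it, and reversals were not looked for. A window of 5 loci is among those that kept it, but it could not change a count of 0 at 10 loci. At an absolute log2 limit of 2 the set kept 3 higher and 0 lower genes, 100% higher, with a median log2 of 2.15. At a limit of 1.5 these values were 7, 0, 100% and 1.96. Both limits remove genes by construction. Below the Bonferroni limit 1 lower gene was left, AT1G72910, with 20 higher. Leaving out the 3 genes annotated to root alone, an alternative chosen after the data were seen, also left 1 lower gene. With a window of 20 loci, 2 receptor genes, AT1G63750 and AT1G63860, became neighbours, against 0 at 10 loci. NB-ARC genes alone numbered 16 higher and 3 lower, and TIR genes alone 17 and 2. Since no receptor genes were neighbours within 10 loci, counting neighbours once could change nothing and is not in these counts. No paired analysis was possible because the lists used hold no values per library, and for that reason leaving out each replicate, another normalization, another tool, a pseudocount and a filter on low values were not run. The depth of the libraries is unknown.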
